A study of Oncorhynchus mykiss with 8 samples.

Results

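The genes described here are mx1, mx2 and irf-2, chosen by their gene symbol in the platform annotation, in any case. These are 3 of the 174 symbols in that annotation, measured by 4 of 43603 probes: A_05_P248684 and A_05_P429242 for mx1, A_05_P246154 for mx2 and A_05_P248864 for irf-2. All 4 had a value on all 8 arrays, so no member was lost to empty cells.

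Liver and muscle of rainbow trout (Oncorhynchus mykiss) were profiled on 8 arrays with 2 colours, 4 per tissue. Each array set a pool of small fish against a pool of large fish of 1 tissue, with the mRNA of 5 fish in every pool. All fish, small and large alike, were of the Lyndon strain and offspring of neomales (genetic females that develop as males and serve as sires), were fed without restriction and had no treatment named in the labels. By the titles, replicates 1 and 2 of each tissue were each hybridised on 2 arrays with the dyes exchanged: large fish in Alexa Fluor 555 on one (the 555 orientation) and in Alexa Fluor 647 on the other (the 647 orientation). The 2 arrays of a replicate were therefore counted as 1 pool pair, which leaves 2 pool pairs per tissue. Nothing in the labels says how the pools of replicates 1 and 2 were drawn, so the p-values measure only the spread between these pools, and the spread between single fish was not measured.

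Mx proteins are large GTPases of the dynamin superfamily. Interferon induces them, and they act against viruses inside the cell; in fish, Mx transcripts are widely used as a readout of the type I interferon response. Interferon regulatory factors are transcription factors that bind interferon-responsive promoters, and IRF2 is known from mammals mainly as an antagonist of IRF1. In the reference annotation the gene mx2 lies on the same chromosome as a gene named mx, which has mx1 as a synonym, and 2 annotated genes without a symbol of their own lie between them. The link from probes to these genes is by symbol alone, since 0 of the 4 probe accessions occur in that annotation. Mx genes are paralogs, and whether a probe also binds the transcript of the other gene was not tested.

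The deposited value is a log2 ratio of the channels of an array, and no label gives the direction of that ratio or says whether arrays with exchanged dyes had been brought to one direction. Both readings are therefore given for every probe. In the turned reading, which is the main one, the array of the 647 orientation has its sign changed and is then averaged with its partner. In the reading as deposited, no sign is changed. A positive value therefore does not tell which size of fish had more of a transcript. As ratios, the values hold no level of a transcript, so neither the tissue labels nor the order of abundance of the members could be checked. In pooled tissue, fewer cells of a type and less RNA per cell cannot be told apart.

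Liver arrays had medians of 0.11 and 0.08 in the 555 orientation and of -0.08 and -0.05 in the 647 orientation. Turned, the liver medians were thus all positive. Muscle arrays had medians of -0.0072 to 0.013. The median size of a deposited value was 0.27 to 0.33 in liver against 0.13 to 0.16 in muscle. Over all probes with values, turned pairs 1 and 2 correlated with 0.21 in liver and 0.32 in muscle. The deposited values on both arrays of a pair correlated with -0.21 and -0.042 in liver, replicate 1 first. In muscle these were -0.082 and 0.076. A blank spot, the dark corner, was not at 0 in either tissue. In liver it had 0.76 and -1.26 on the arrays of replicate 1, the 555 orientation first, and 0.71 and -0.12 on those of replicate 2. In muscle it had 0.32 and -0.48 in replicate 1 and 0.52 and 0.58 in replicate 2. Turned, it was positive on all arrays but the last of these. Another negative control, (-)3xSLv1, was between -2.81 and 0.92 on the 3 liver arrays where it had a value, and between -0.07 and 0.22 on the 4 muscle arrays. The part that signal near background had in the members' values was not tested, because intensities were not used here.

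**Figure D1:**
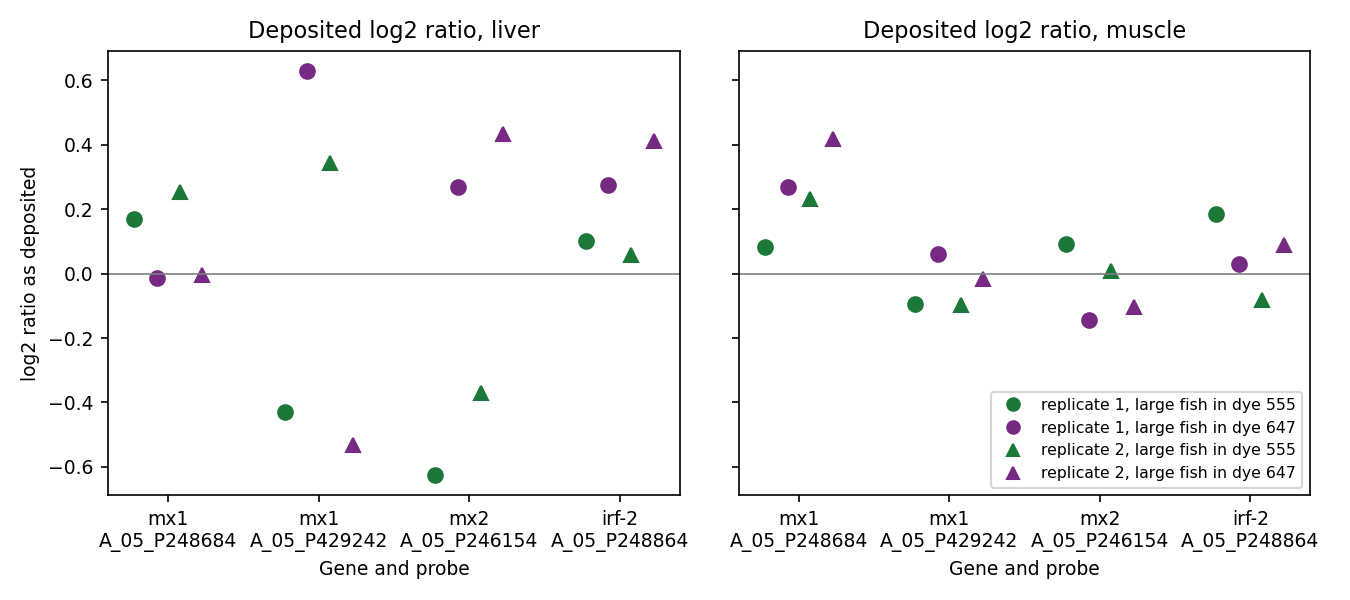
Deposited log2 ratio (vertical axis) of the 4 probes of mx1, mx2 and irf-2 on the 4 liver arrays (left) and the 4 muscle arrays (right). Colour marks the dye orientation and shape the replicate. In liver the mx2 values of the 555 orientation are both below 0 and those of the 647 orientation both above 0, while the irf-2 values are all above 0.

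Across both tissues and readings, none of the 4 probes passed an adjusted p of 0.05 in limma, where 0 of 36053 liver probes and 0 of 41652 muscle probes passed (0% called). Only mx2 in liver, turned, had an unadjusted p under 0.05 in limma, against 20.4% of all liver probes in that reading. That fit shares its spread between tissues. With liver fitted alone mx2 had an unadjusted p of 0.0561 and an adjusted p of 0.600 in limma, and 7.34% of liver probes were under 0.05. The shares for the other comparisons were 4.53% in muscle turned, 9.97% in liver as deposited and 1.63% in muscle as deposited. The text below therefore gives signs and values and no called change. Turned values kept 1 sign on all 4 arrays of a tissue for 2 of the 4 probes in liver, against 26.2% of all probes, and for 1 of 4 in muscle, against 17.2%. As deposited it was 1 of 4 in each tissue, against 9.61% in liver and 10.6% in muscle. These signs are relative to 0, not to the median of an array.

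The mx2 probe had the widest turned mean among the members. Its deposited liver values were -0.63 in replicate 1 and -0.37 in replicate 2 in the 555 orientation. In the 647 orientation it had 0.27 and 0.44. The sign thus followed the dye orientation on every liver array, as for 26.2% of liver probes in 1 direction or the other. Placed among all probes of an array, mx2 lay at percentiles 10.5 and 16.1 in the 555 orientation and at 77.3 and 81.8 in the 647 orientation.

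Turned, the mx2 values were negative on all 4 liver arrays, as were those of 8.51% of liver probes. The pool pairs gave -0.45 and -0.40, and their mean was -0.42 ± 0.03 (SD, n = 2 pool pairs). That is a 1.34-fold ratio, and limma gave a 95% interval of -0.67 to -0.18, an unadjusted p of 0.0083 and an adjusted p of 0.176. Of all liver probes, 20.7% had a turned mean at least as far from 0. As deposited, the orientations cancelled: the pairs had -0.18 and 0.033, and the mean was -0.07 ± 0.15, with an adjusted p of 0.807 in limma. A fit of all 8 arrays that took the pair as a random block gave the turned liver mean of mx2 an adjusted p of 0.0307 in limma. In that fit 1841 of 36053 liver probes passed. The correlation estimated there between arrays of a pair was -0.15, below 0, so arrays of the same RNA counted for no less than separate replicates.

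In muscle the deposited mx2 values were small, with 0.092 and 0.0072 in the 555 orientation and -0.15 and -0.10 in the 647 orientation. The value of 0.0072, in replicate 2, was close to 0, and relative to the median of its array it was -0.0043. As deposited, the sign of the mx2 values again followed the dye orientation, the other way round from liver. Turned, all 4 were positive, as for 8.83% of muscle probes, and the mean was 0.09 ± 0.04 (SD, n = 2 pool pairs), with a 95% interval of -0.16 to 0.33 and an adjusted p of 1 in limma. As deposited the mean was -0.04 ± 0.02, with an adjusted p of 1.

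The gene mx1 was measured by 2 probes that carry the same accession. On A_05_P248684 the deposited liver values were 0.17 and 0.25 in the 555 orientation of replicates 1 and 2, and -0.014 and -0.0043 in the 647 orientation. The deviation from 0 was thus seen in 1 dye orientation only. Relative to the median of its array the probe was slightly positive on all 4 liver arrays, from 0.044 to 0.17.

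Turned, this probe was positive on all 4 liver arrays, with pair values of 0.093 and 0.13, which average 0.11 ± 0.03 (SD, n = 2 pool pairs). All 4 turned values were positive for 17.7% of liver probes, and 71.6% of them had a mean at least as far from 0. The mean as deposited was nearly the same, 0.10 ± 0.03, because the 647 arrays were close to 0. Limma gave adjusted p values of 0.486 turned and 0.712 as deposited. With each array centred on its median the turned mean was 0.030. Relative to those medians the probe had 0.067 and 0.044 in the 647 orientation, which turning makes negative. The shared turned sign thus rested on where 0 was set.

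In muscle the same probe had its widest deviation as deposited. The values were 0.084 and 0.23 in the 555 orientation and 0.27 and 0.42 in the 647 orientation, positive on all 4 arrays, as for 5.57% of muscle probes. On the 647 arrays it lay at percentiles 88.6 and 95.02. The mean as deposited was 0.25 ± 0.11, a 1.19-fold ratio, with a 95% interval of -0.02 to 0.52, and 7.03% of muscle probes had a mean at least as far from 0. Limma gave an unadjusted p of 0.0623 and an adjusted p of 1. Turned, the pair values were -0.092 and -0.093, with a mean of -0.09 ± 0.00099, and limma's adjusted p was again 1. The pairs thus repeated closely in size, but the arrays behind them had 2 positive and 2 negative turned values. The sign of this probe's mean in muscle rested on the reading.

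The other mx1 probe, A_05_P429242, behaved differently in liver. It had -0.43 and 0.63 on the arrays of replicate 1 and 0.34 and -0.53 on those of replicate 2, the 555 orientation first in each. Its sign thus followed the dye orientation within each replicate but in opposite directions in replicates 1 and 2. Turned, the pairs were -0.53 and 0.44, and the mean was -0.05 ± 0.68 (SD, n = 2 pool pairs), with a 95% interval of -0.73 to 0.64 and an adjusted p of 0.923 in limma. Without replicate 1 of liver the mean is 0.44 and without replicate 2 it is -0.53, each then the value of a lone pair. As deposited the mean was 0.0024 ± 0.14.

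Transcripts of plasma proteins and of red blood cells are given beside this probe. Of the 7 liver markers listed, 3 had a symbol on the platform. Turned, albumin (alb1) had -0.69 in pair 1 and 0.67 in pair 2, and transferrin (trf, 3 probes averaged) -0.49 and 0.33, so both changed sign between the pairs in the same direction as the probe. Antithrombin had -1.46 and -0.0093. Of 3 red blood cell markers only the globin gene hba (3 probes averaged) was on the platform, with -0.31 and 0.26. Its probes did not all move together, with uncentred correlations (described below) of -0.46, -0.20 and 0.89 among them. None of 9 leukocyte markers was on the platform, that is 0. The adipocyte marker pparg went the same way as the probe, with -0.11 and 0.41. The muscle markers mlc-2, mrf4 and myf5 did not, with 0.042 and -0.22, -0.13 and -0.054, and 0.49 and -0.004. The muscle marker prvb had -0.70 in pair 1 and an incomplete pair 2. In replicate 2 it had 1.14 in the 555 orientation and no value in the other, so its signs were those of the probe. The share of all liver probes with such a sign change was not computed. The part of these transcripts in the mx1 value was not tested.

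In muscle the probe A_05_P429242 stayed near 0. Its values were -0.095 and -0.099 in the 555 orientation and 0.059 and -0.016 in the 647 orientation. The mean was -0.06 ± 0.03 turned and -0.04 ± 0.03 as deposited, and limma's adjusted p was 1 in either reading.

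The irf-2 probe was positive as deposited on all 4 liver arrays, as were 5.54% of liver probes. It had 0.10 and 0.058 in the 555 orientation and 0.27 and 0.41 in the 647 orientation. Relative to the median of its array it had -0.0093 and -0.022 in the 555 orientation, and 0.36 and 0.46 in the 647 orientation. The shared sign of the deposited values thus rested on where 0 was set. The 647 orientation gave the higher value in each pair, and the share of all probes with such an order was not computed. As deposited the mean over 2 pool pairs was 0.21 ± 0.03 (SD), or 1.16-fold, with a 95% interval of -0.05 to 0.47, and limma gave an adjusted p of 0.522. Turned, the pair values were -0.086 and -0.18, the mean was -0.13 ± 0.06, and the adjusted p was 0.463 in limma. The sign of irf-2 in liver thus rested on the reading.

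In muscle irf-2 had 0.19 and -0.082 in the 555 orientation and 0.031 and 0.088 in the 647 orientation. The sign was positive on 3 of 4 arrays as deposited, and the pairs had 0.11 and 0.0033, with a mean of 0.06 ± 0.07. Turned, the pairs were 0.078 and -0.085, on opposite sides of 0, and the mean was -0.0037 ± 0.11. Limma gave an adjusted p of 1 in either reading.

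**Figure D2:**
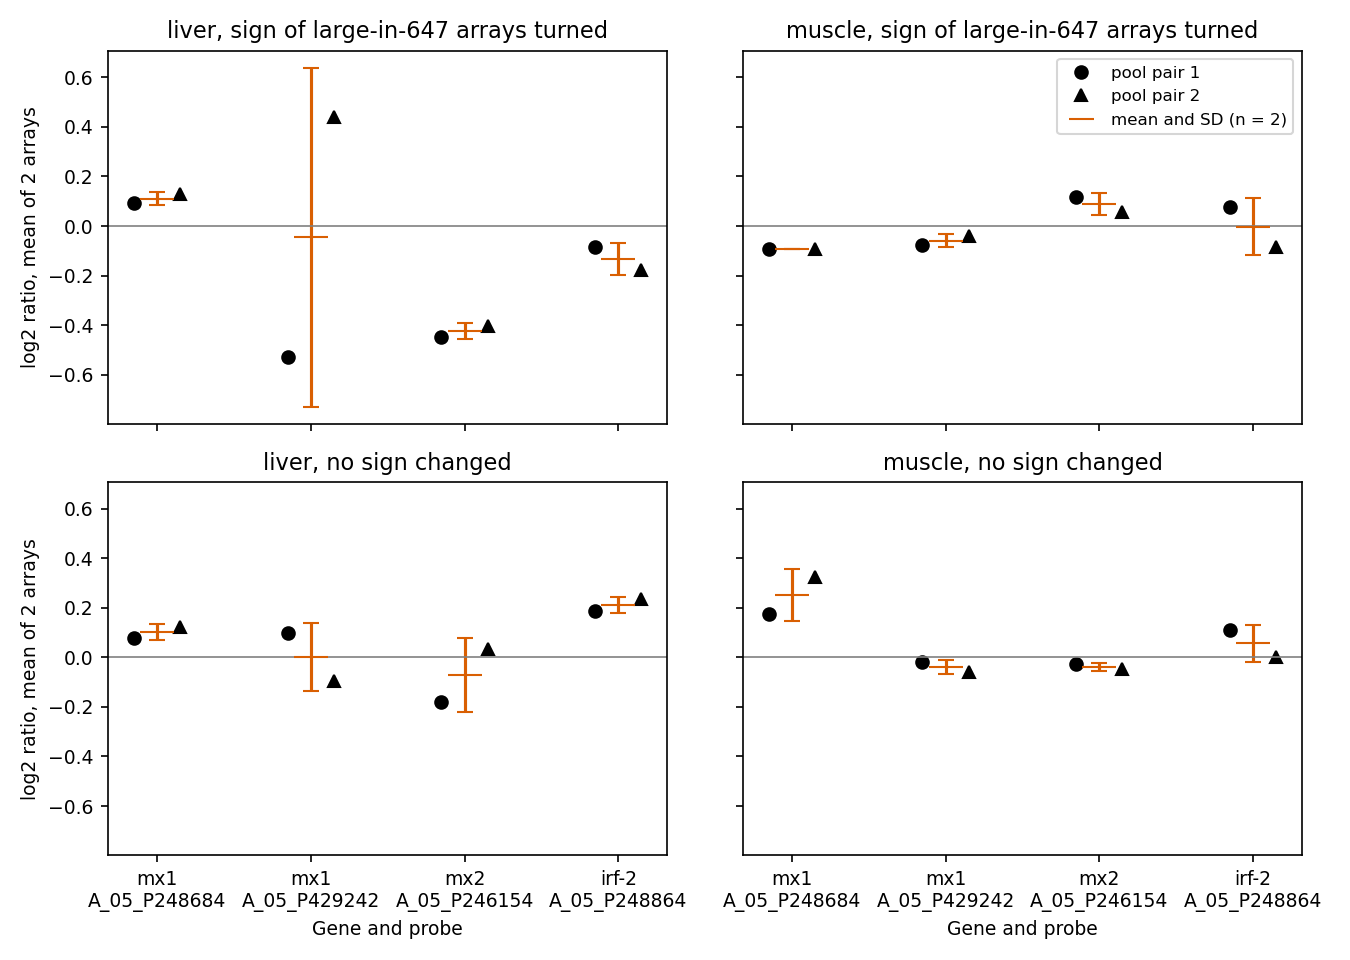
Value of each pool pair (circle, pair 1; triangle, pair 2) for the 4 probes in liver (left) and muscle (right), as the mean of the 2 arrays of the pair on the log2 scale, turned (top) or as deposited (bottom). Orange bars are the mean and SD of 2 pool pairs; the turned mx2 pairs in liver lie at -0.45 and -0.40, and those of mx1 A_05_P429242 at -0.53 and 0.44.

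The values of mx1 and mx2 were set side by side without a test of their difference, since a permutation test of 1 value over 2 pool pairs cannot reach 0.05. In liver, turned, mx2 was negative in both pairs while mx1 A_05_P248684 was positive in both, and the difference mx1 minus mx2 was 0.54 and 0.53. The deposited signs of these probes were opposite on all 4 liver arrays, that is, they matched on 0. In the 647 orientation, however, the mx1 values were close to 0, at -0.0145 and -0.0043. Relative to the median of its array this mx1 probe had 0.067 and 0.044 there, of the same sign as mx2 with 0.35 and 0.48. The opposite signs on these arrays thus rested on where 0 was set. With the other probe, A_05_P429242, the turned difference was -0.083 in pair 1 and 0.84 in pair 2. In replicate 1 that probe and mx2 had the same signs, with mx2 the wider on the array of the 555 orientation and mx1 the wider on the other, and in replicate 2 they had opposite signs.

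In muscle, turned, both mx1 probes were negative in both pairs and mx2 was positive in both. The turned difference, with the mx1 probes averaged, was -0.16 ± 0.06 (SD, n = 2 pool pairs). As deposited it was 0.14 ± 0.05, of the other sign, since mx1 A_05_P248684 was then the positive one. As deposited, mx1 A_05_P429242 and mx2 had nearly the same muscle means, both -0.04, but matched in sign on 1 of 4 arrays.

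The likeness of probes was also described by the uncentred correlation over the 8 arrays, that is, their summed product divided by their sizes, which is the same in both sign readings. The 8 arrays come from 4 pool pairs, so it carries no p. Between mx1 A_05_P248684 and mx2 it was -0.48, with equal signs on 2 of 8 arrays. Of all probes, 95.5% were at least as like that mx1 probe as mx2 was, and 75.1% were at least as like mx2 as that probe was. Between mx1 A_05_P429242 and mx2 it was 0.069, with equal signs on 3 arrays, and 40.4% of all probes were at least as like it. Without replicate 1 of liver this correlation was -0.95, and without replicate 2 it was 0.76. The irf-2 probe had 0.34 with mx2, 0.19 with mx1 A_05_P248684 and -0.14 with A_05_P429242. Over the 4 arrays of a tissue, mx2 had -0.76 in liver and -0.66 in muscle with mx1 A_05_P248684. With A_05_P429242 it had 0.090 in liver and -0.54 in muscle, and with irf-2 0.37 and 0.062. Neither mx1 probe thus tracked mx2 over the whole set of arrays, and A_05_P429242 did so in replicate 1 of liver but not in replicate 2.

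The mx1 probes did not track each other either, with an uncentred correlation of -0.024 and equal signs on 3 of 8 arrays. The platform offered 61 pairs of probes with 1 symbol, from 32 symbols, as a scale for this. Their median was 0.34, with quartiles of -0.055 and 0.86, and 28 pairs lay above 0.5. Of them, 19 pairs were less alike than the mx1 probes. A single value for mx1 on this platform thus averages probes that did not move together.

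**Figure D3:**
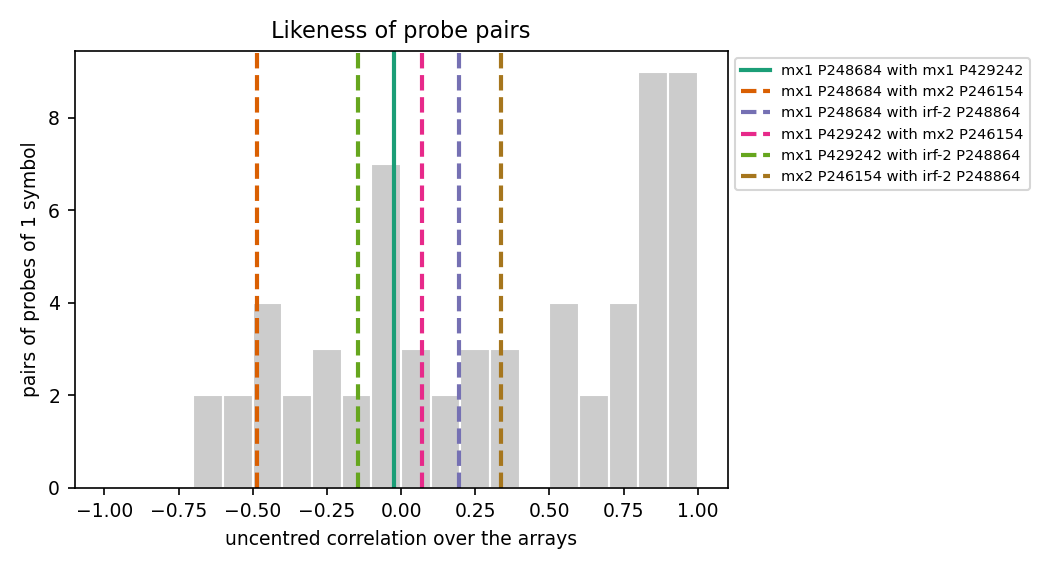
Uncentred correlation over the arrays (horizontal axis, no unit) for the 61 pairs of probes that share a symbol (grey bars, number of pairs), with the 6 pairs among the members as vertical lines. The line of the 2 mx1 probes is at -0.024, that of mx1 P248684 with mx2 at -0.48 and that of mx2 with irf-2 at 0.34.

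The ratios were also set against each other between tissues. For mx2 the turned liver mean was below the muscle mean by a difference of -0.51, with a 95% interval of -0.86 to -0.16 and limma's unadjusted p of 0.0146. The adjusted p was 0.546 in limma, and 8.97% of 34757 probes had an unadjusted p under 0.05. As deposited the difference was -0.04, with an adjusted p of 0.972 in limma, and 4.94% of probes had such an unadjusted p. For mx1 A_05_P248684 the difference was 0.20 turned and -0.15 as deposited, and for A_05_P429242 it was 0.014 and 0.04. That of irf-2 was -0.13 turned and 0.16 as deposited. None of these passed an adjusted p of 0.05 in limma, where 0% of probes were called. No label ties the liver pool of a number to the muscle pool of that number.

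Of a list of 70 symbols of the interferon response and of class I antigen presentation, 13 were on the platform, 3 of them the members. The other 10 were irf-1, the interferon gene ifng, the receptor gene tlr9, and b2m, psmb8b, psmb9a, psmb9b, tap1, tap2b and tapbp, which act in cutting, transporting and presenting peptides. No probe of the list passed in either tissue or reading. Of the 10 genes other than the members, 7 had complete liver values, 5 with a positive and 2 with a negative turned mean. Their median was 0.09 against 0.04 over all liver probes, and as deposited 3 were positive and 4 negative, with a median of -0.04 against 0.03. In muscle all 10 were complete, with 4 positive and 6 negative in either reading. The medians there were -0.02 turned and -0.05 as deposited, against 0.0096 and 0.0026 over all probes.

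Among the 7 genes with complete liver values the widest turned means there were those of b2m, a subunit of class I molecules, with -0.61 ± 0.77, and of irf-1, an activator of interferon-responsive genes, with 0.28 ± 0.07 (SD, n = 2 pool pairs). Of the 3 genes with empty liver cells, psmb9a and tap1 had 1 complete pair each, with wider values of 1.31 and -0.92. The b2m mean rested on pair 1, with -1.16 against -0.066 in pair 2. The irf-1 values were positive on all 4 turned liver arrays (as for 17.7% of liver probes), where mx2 was negative, and negative on all 4 turned muscle arrays (as for 8.35% of muscle probes), where mx2 was positive. Its muscle mean was -0.07 ± 0.0034. In muscle the widest turned means were those of tap2b, a peptide transporter subunit, with 0.25 ± 0.07, and of psmb9a, an immunoproteasome subunit, with 0.23 ± 0.18.

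As deposited, b2m had -0.46 ± 0.32 and psmb9b 0.32 ± 0.40 in liver, and psmb8b -0.28 ± 0.18 and psmb9a -0.23 ± 0.19 in muscle. Of these, psmb8b in muscle was negative on all 4 arrays (as for 4.99% of muscle probes). In liver psmb9b, its 3 probes averaged, was positive on all 4 (as for 5.54% of single liver probes). Those 3 probes had uncentred correlations of 0.21, 0.12 and 0.077 among them. The psmb9b liver mean combined pairs of 0.60 and 0.035.

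**Figure D4:**
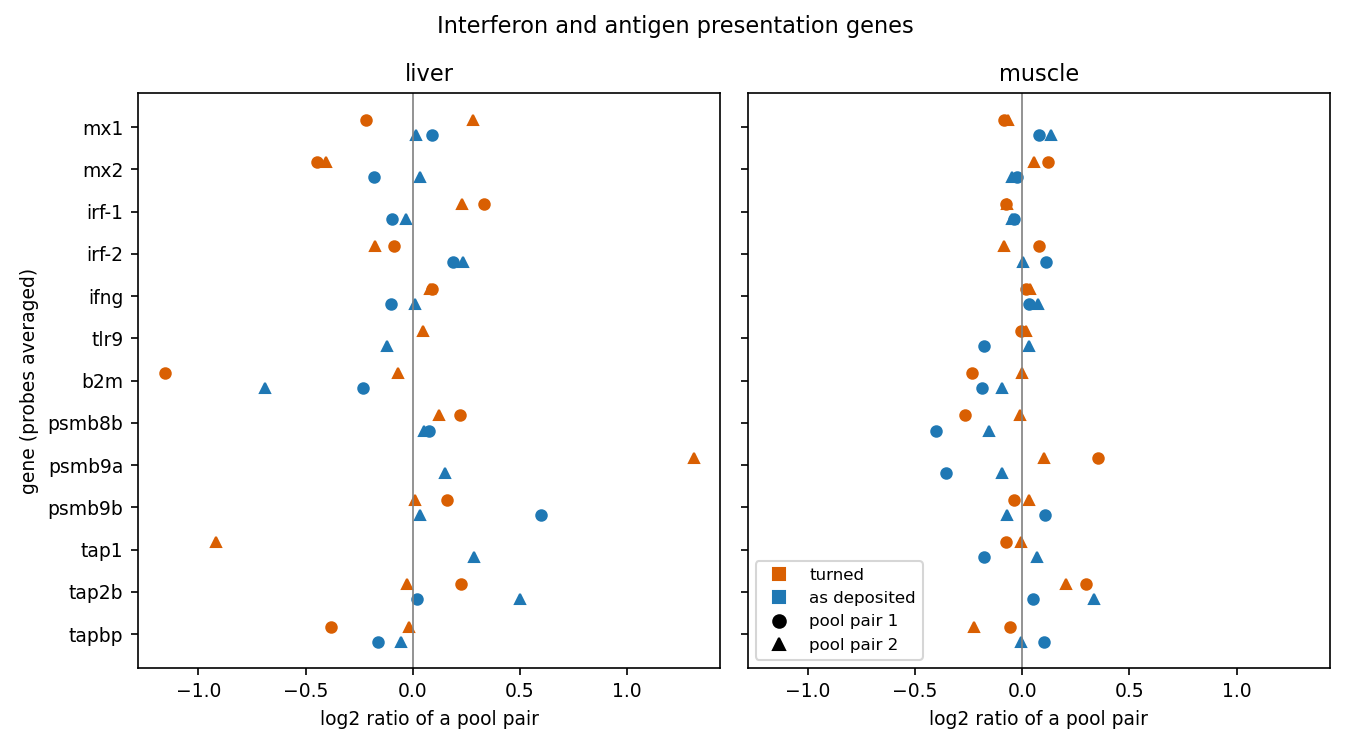
Value of each pool pair (log2 ratio, horizontal axis; circle, pair 1; triangle, pair 2) for the 13 listed genes on the platform, probes averaged, in liver (left) and muscle (right), turned (orange) and as deposited (blue); a pair without a value on both arrays has no point. The turned mx2 points in liver lie together at -0.45 and -0.40, while those of mx1 lie on opposite sides of 0, at -0.22 and 0.28.

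The genes most like each member over the arrays were found among 84 named genes. For mx2 these were fkh with 0.90, esr1 (the oestrogen receptor) with 0.84 and tap1 (a peptide transporter subunit) with 0.81, the last over 7 arrays. The deposited liver values of fkh were -1.05 and -1.09 in the 555 orientation and 1.18 and 0.81 in the 647 orientation, each of the sign of mx2. In muscle fkh had 0.037 and -0.24 in the 555 orientation and 0.13 and -0.034 in the 647 orientation, and its sign matched that of mx2 on 2 of 4 arrays. For mx1, probes averaged, they were rig with 0.76, prvb (a parvalbumin) with 0.75 and myod2 (a myogenic factor) with 0.72. The values of prvb and myod2 were each over 7 arrays. The probes averaged for mx1 had -0.024 with each other and those for rig -0.036, so these values need not hold for a single probe. For irf-2 they were tap2a1 with 0.78, hsp70 (a heat shock chaperone) with 0.78 and mlc-2 (a myosin light chain) with 0.70. Of the 2 tap2a1 probes only 1 was complete in each tissue, so some of its array values come from 1 probe. The 4 probes averaged for mlc-2 had from -0.51 to 0.63 with each other, so that value too need not hold for a single probe. Points of one pool pair share their RNA, and arrays of one dye orientation share the orientation.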

How the data were processed

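The labels' protocols name Trizol extraction, mRNA isolation on magnetic columns and direct labelling of cDNA. The deposited value of a probe is a log2 ratio of both channels of an array. That unit was read from the values, since 2 to the power of a value of moderate size fell on a ratio of 3 decimals (within 0.05 thousandths) for 93.3 to 98.2% of the values per array. The scanner software, background correction, normalization and ratio direction are not given in the sources used here. The value table had 43663 rows, of which 60 controls were left out. Symbols came from the old platform annotation, which names 221 probes.

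Pool pair values were formed as described above and went into 1 model over all probes (limma 3.58.1, R 4.3.3) that held a mean for each tissue. Each tissue mean was tested against 0, and liver against muscle, two-sided, with Benjamini-Hochberg adjustment over all probes tested and a threshold of 0.05. Only probes with values on all 4 arrays of a tissue were tested there. The fit was tested on simulated data. The small number of pool pairs limits the precision. Likeness was computed over at least 7 arrays. Alternatives were the reading of the sign, centring, scale, replicate unit, empty cells, averaged probes, each tissue alone, the replicate number as a block and each pool pair left out. The genes to be named were all members, the 2 other listed genes with the widest mean per tissue and reading, and the 3 named genes most like each member. Members, lists and tests were chosen with earlier results of these data known. No sequence is printed, as no sequence table was used here.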

Additional observations from a re-analysis of the deposited data

How the results depend on the processing

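Of 144 alternative values of the 4 probes (liver mean, muscle mean and their difference), 122 kept their sign and their side of the threshold, 20 changed sign and 2 newly passed in limma. Those that passed were the liver means of mx2 with the random block and of A_05_P429242 without replicate 2. The latter, at -0.53, is a lone pair with its spread from muscle, and passing was common among liver probes in that setting. That value is therefore not read as a called change. Results that held their sign under all 12 alternatives were the liver means of mx1 A_05_P248684 and of mx2, the muscle mean of mx1 A_05_P429242 and the tissue difference of mx2. In the turned reading, some alternatives only re-estimate the spread and could not change a sign. For a mean these were the random block, the tissue alone, a pair of the other tissue left out and the setting for empty cells. For the difference they were both blocks and the setting for empty cells. Averaging the probes of 1 symbol likewise could not change a value of mx2 or irf-2, each with 1 probe. With no sign changed, also with each tissue fitted alone, the liver means of mx1 A_05_P429242 and irf-2 became 0.0024 and 0.21, and the muscle means of mx1 A_05_P248684, mx2 and irf-2 became 0.25, -0.038 and 0.056. The tissue differences of mx1 A_05_P248684 and irf-2 became -0.15 and 0.16, also with the replicate block, and mx1 minus mx2 became 0.12 in liver and 0.14 in muscle. That follows from the reading itself; the cause of the other shifts was not tested.

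Averaging both mx1 probes gave a liver mean of 0.032, and centring gave A_05_P429242 a tissue difference of -0.059 and the uncentred correlation of A_05_P248684 with mx2 a value of -0.25. Scaling moved mx1 minus mx2 in muscle to -0.24. With the pair taken as a random block mx2 in liver, at -0.42, passed with an adjusted p of 0.0307 in limma, among 1841 of 36053 liver probes. In muscle 1 probe passed after scaling and 3 passed with muscle fitted alone, none of them a member.

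With a pool pair left out, 0 to 7964 liver probes, 0 to 3 muscle probes and 0 to 4533 tissue differences passed in limma, the high counts being those without a liver pair, where a lone pair takes its spread from muscle. The mean of A_05_P429242 then ranged from -0.53 to 0.44 in liver, and its tissue difference from -0.47 to 0.50. The muscle mean of irf-2 ranged from -0.085 to 0.078. The uncentred correlation with mx2 ranged from -0.63 to -0.45 for A_05_P248684, lowest without replicate 2 of muscle, and from -0.95 to 0.76 for A_05_P429242.

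With the replicate block 0 probes passed in the tissue difference, as in the fit without it, and the block changed no call. Replicate numbers are not stated to pair tissues. The deviations of same-numbered liver and muscle pools correlated with 0.067 turned and 0.041 as deposited.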

Other observations

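Further interferon genes of the platform lay outside the list; they were picked with their values in view. The type I interferon gene ifna2 was positive on all 4 turned arrays in liver and in muscle, with means of 0.20 ± 0.06 and 0.08 ± 0.05 (SD, n = 2 pool pairs). All 4 turned values were positive for 17.7% of liver probes and 8.83% of muscle probes. As deposited the means of ifna2 were 0.04 ± 0.11 and 0.02 ± 0.07. Its turned sign was thus that of mx2 in muscle and the opposite one in liver. The gene pkz, which in fish encodes a kinase related to the antiviral kinase PKR, had values on 2 of 4 liver arrays, one from each pool pair. In muscle its turned mean was 0.02 ± 0.26. The peptide transporter gene tap2a1 had 2 probes, of which 1 had values on all 4 liver arrays. Its array values thus came in part from 1 probe alone. Their liver mean was -0.21 ± 0.54 turned and 0.31 ± 0.20 as deposited.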
